A study of Homo sapiens with 8 samples.

Results

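The mRNAs of the cell's own mRNA decay machinery were followed on the arrays, that is the transcripts that encode deadenylases, decapping factors, exonucleases, exosome subunits, LSm proteins, poly(A) binding proteins and nonsense-mediated decay factors. They were taken as all genes whose symbol starts with CNOT, DCP, EDC, XRN, EXOSC, LSM, PABPC, PATL, UPF or SMG, or is PAN2 or PAN3, with a probe well above background in 4 or more of the 8 channels. This gave 89 probes of 56 genes, among 22538 such probes on the array, of which those with a gene name covered 10990 genes. Of these, 82 probes of 54 genes also had Cy3 and Cy5 labellings within 2-fold in every sample, and the values below are from these retained probes, among 17912 retained probes in all. The symbols were read with no view of function, and so include DCPH1, a metal-dependent phosphatase that only shares the first letters of DCP1A and DCP2 and is no decay factor.

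KM-H2 is a Hodgkin lymphoma cell line, which is known to express miR-155 highly. The cells had been transduced with the empty pMSCV-PIG vector (EV) or with the same retroviral vector carrying a sponge against miR-155 (miR-155-sp, called sponge cells below), a transcript with binding sites that capture the miRNA, and GFP+ cells had been sorted in both cases. Total RNA (T) of both populations and the RNA immunoprecipitated with an antibody against Argonaute 2 (Ago2-IP) were measured on 2-color Agilent whole genome arrays, to find transcripts bound by Argonaute 2 (Ago2) and those that lose Ago2 when miR-155 is captured. There were 4 RNA samples, 1 per group, each labelled once with Cy3 and once with Cy5, so that the 2 labellings listed as replicates are technical, no test over samples was possible and no difference has a replicate check. All samples come from 1 cell line, and the populations are bulk cells in which fewer cells with a transcript and less transcript per cell cannot be told apart.

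Argonaute proteins carry a miRNA to matching sites in mRNAs and, through TNRC6 proteins, recruit the PAN2-PAN3 and CCR4-NOT complexes that shorten the poly(A) tail. A deadenylated mRNA is then decapped by DCP2 with its partners and degraded by XRN1 from the 5′ end, or degraded by the exosome from the 3′ end. Some of the genes described here thus encode effectors of miRNA silencing. The arrays, however, measure the mRNAs of all these genes as possible cargo of Ago2, and say nothing of the amount or activity of the proteins.

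The miRNA that the sponge captures is shown because its seed, bases 2 to 8 in capitals, sets which mRNAs it can recognise. Its mature sequence is from RefSeq, at chr21:25573983-25574006 on the plus strand of GRCh38.p14, and its seed pairs with the site AGCATTA in an mRNA. Whether the mRNAs of the decay factors carry that site was not examined, since no transcript sequences were used.
hsa-miR-155-5p: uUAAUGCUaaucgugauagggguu

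Ago2 binding is given as IP/T, the ratio of the quantile-normalized signal in the Ago2-IP fraction to that in total RNA of the same population. It is set against the centre of all probes on the array, and an IP/T of at least 2 is called enriched and one of 0.5 or less depleted, with no test. In EV-KM-H2 cells 15 of the 82 probes (18.3%, 12 genes) were enriched, against 14.8% of all retained probes. In sponge cells 13 probes (15.9%, 10 genes) were enriched against 15.6% of all, and all 13 were among the 15, against 13.4% of all probes enriched in both populations. An IP/T of at least 4 was reached by 8 probes (9.76%) in EV-KM-H2 cells, where the share of all probes was 5.91%, and by 9 (11.0%) in sponge cells, where it was 6.31%. Depletion was seen for 4 probes (4.88%) against 12.9% of all in EV-KM-H2 cells, and for 5 probes (6.10%) against 14.1% in sponge cells. The shares of probes at 2 or above thus lay near those of all probes. Those at 4 or above were higher and those of depleted probes lower, none of which was tested. At 4 or above in either population, only CNOT6L (A_23_P110304) and DCPS passed the background limit in every channel. In EV-KM-H2 cells the others were CNOT4 (A_23_P156993), both DCP2 probes, LSM11 (A_23_P368195), SMG1 (A_24_P244952) and XRN1. Except for DCP2 (A_24_P886040), these passed it in 1 labelling of EV total RNA, which makes their ratios uncertain. Most member probes at 4 or above thus had weak total RNA. How common this was among all probes at 4 or above was not counted.

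The enriched mRNAs encoded the deadenylase subunits CNOT6L, CNOT4, CNOT9 and PAN3, the decapping factors DCP2, DCP1A, DCPS and PATL1, the exonuclease XRN1, the LSm proteins LSM11 and LSM14B and, by 1 of its 4 probes, the kinase SMG1. None of the 13 exosome probes, none of the 11 probes for the LSM1-7 and LSM2-8 rings and none of the 5 PABPC probes was enriched in either population, where 14.8% of all probes were enriched in EV-KM-H2 cells. Differences between the groups were not tested. The median log2 IP/T in EV-KM-H2 cells was 1.02 over the 9 decapping probes, 0.51 over the 5 PABPC probes, -0.01 over the exosome, -0.07 over the LSm rings, -0.18 over the 20 deadenylase probes and -0.46 over the 13 probes for nonsense-mediated decay. Over all 82 probes it was -0.07 and over all retained probes -0.24. The decapping median was 0.61 where the IP was in Cy5 and 0.94 where it was in Cy3, and 0.895 in sponge cells.

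**Figure D1:**
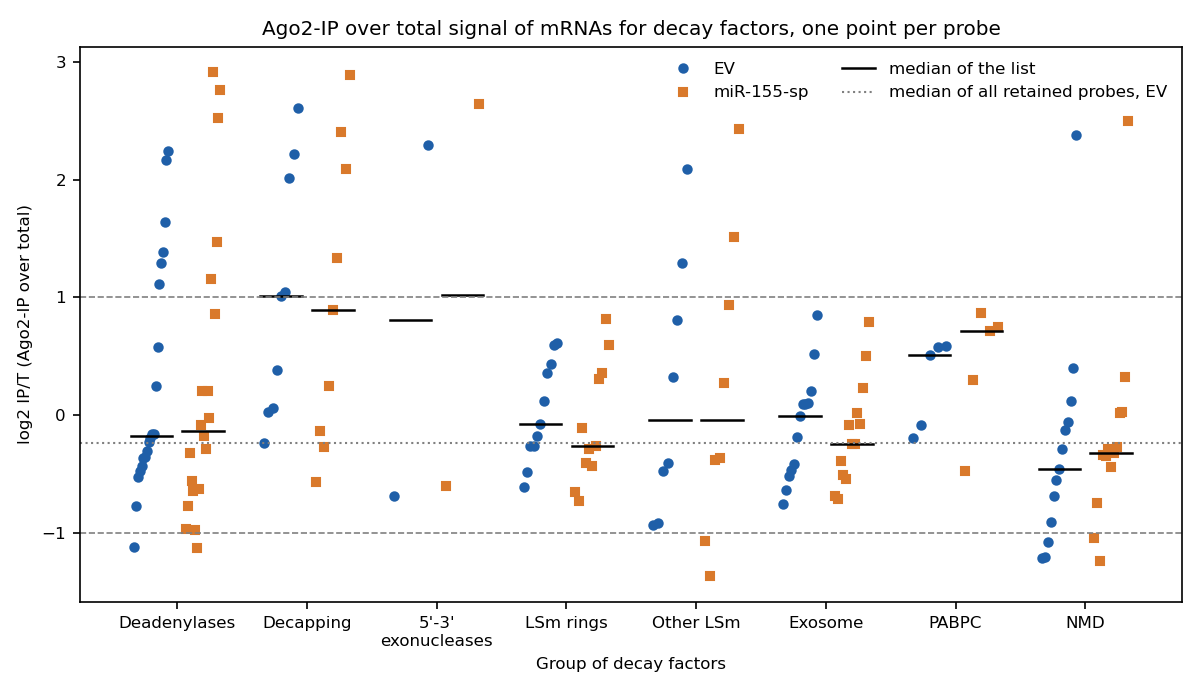
Log2 IP/T (y axis) of each retained probe by group of decay factors (x axis), in EV-KM-H2 cells (blue circles) and sponge cells (orange squares), with the median of each group as a bar, the thresholds of 2 and 0.5 as dashed lines and the median of all retained probes in EV-KM-H2 cells as a dotted line. The decapping group has the highest median among groups with more than 2 probes (1.02 in EV and 0.895 in sponge cells). No exosome, LSm ring or PABPC probe reaches the upper threshold.

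Signal strength limits some of these ratios. In all 15 enriched probes both Ago2-IP labellings of EV-KM-H2 cells were well above background. That these lay above both total RNA labellings follows from the call, as labellings were within 2-fold and the ratio at least 2. The same holds below for any probe at 2 or above and, reversed, at 0.5 or less. In 6 of the 15 the EV total RNA was well above background in 1 labelling only. These 6 were the probes of CNOT4 (A_23_P156993), CNOT6L (A_24_P291680), DCP2 (A_23_P256868), LSM11, SMG1 and XRN1, and their ratios are uncertain for that reason. With probes well above background in all 8 channels only, 8 of 68 were enriched in EV-KM-H2 cells (11.8%, against 12.7% of all). In 4 bins of mean signal with equal numbers of all probes, 6 of 15, 3 of 19, 4 of 17 and 2 of 31 probes were enriched from the lowest to the highest bin, while over all probes the shares were 15.0%, 16.0%, 15.2% and 12.9%. After normexp background correction, which shrinks ratios, 3 of the 15 probes kept an IP/T of 2 with quantile normalization (both DCP2 probes and CNOT6L A_23_P110304) and 5 with loess and Aquantile. Those 5 were DCP2 (A_24_P886040), CNOT6L (A_23_P110304), CNOT4 (A_23_P300781), DCP1A and LSM14B, and the shares of all probes were 6.64% and 5.99%. No member was at 0.5 or less in EV-KM-H2 cells under either normexp setting.

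Among the deadenylases, the CCR4-NOT complex is built on the scaffold CNOT1 and has a pair of catalytic subunits, one of the CNOT6 and CNOT6L type and one of the CNOT7 and CNOT8 type. CNOT6L mRNA was enriched by both of its probes. On A_23_P110304 its log2 signal was 8.49 (Cy3) and 8.56 (Cy5) in EV total RNA, 10.83 and 10.56 in EV Ago2-IP, 8.39 and 8.48 in miR-155-sp total RNA and 10.92 and 11.01 in miR-155-sp Ago2-IP. IP/T was 4.50 in EV-KM-H2 cells (4.19 where the IP was in Cy5, 4.83 where it was in Cy3). In sponge cells it was 5.76 (6.12 and 5.41). The second probe, A_24_P291680, was well above background in 6 channels, with 6.44 (Cy3) and 6.36 (Cy5) in EV total RNA, 7.50 and 7.88 in EV Ago2-IP, 5.23 and 4.76 in miR-155-sp total RNA and 8.02 and 7.80 in miR-155-sp Ago2-IP. Its IP/T was 2.45 in EV-KM-H2 cells (2.72 where the IP was in Cy5, 2.20 where it was in Cy3) and 7.54 in sponge cells (5.95 and 9.56).

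CNOT7 and CNOT8, which encode the other type of catalytic subunit, were not enriched. The 4 CNOT7 probes had a log2 IP/T between -0.52 and -0.19 in EV-KM-H2 cells and between -0.56 and 0.20 in sponge cells. CNOT8 had an IP/T of 0.781 in EV-KM-H2 cells (0.727 where the IP was in Cy5, 0.840 where it was in Cy3) and 0.458 in sponge cells (0.439 and 0.477), and is described further with the sponge. No probe was matched to CNOT6 or CNOT11.

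CNOT4, a RING-type ubiquitin ligase that associates with the complex, was enriched by both probes. Probe A_23_P300781, well above background in all 8 channels, gave log2 signals of 10.47 (Cy3) and 10.35 (Cy5) in EV total RNA, 11.61 and 11.44 in EV Ago2-IP, 10.43 and 10.49 in miR-155-sp total RNA and 11.79 and 11.45 in miR-155-sp Ago2-IP. This was an IP/T of 2.17 in EV-KM-H2 cells (1.96 where the IP was in Cy5, 2.39 where it was in Cy3) and 2.23 in sponge cells (2.02 and 2.47), close in both populations. Probe A_23_P156993 gave 5.09 (Cy3) and 5.25 (Cy5) in EV total RNA, 7.78 and 7.04 in EV Ago2-IP, 4.97 and 4.71 in miR-155-sp total RNA and 7.86 and 7.35 in miR-155-sp Ago2-IP. Here IP/T was higher, 4.73 in EV and 6.81 in sponge cells, on signals near background in total RNA.

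CNOT9, a subunit that contacts TNRC6 proteins, had log2 signals of 7.11 (Cy3) and 7.19 (Cy5) in EV total RNA, 8.20 and 8.87 in EV Ago2-IP, 7.10 and 7.45 in miR-155-sp total RNA and 8.09 and 8.18 in miR-155-sp Ago2-IP. Its IP/T was 2.62 in EV-KM-H2 cells (3.39 where the IP was in Cy5, 2.03 where it was in Cy3) and 1.81 in sponge cells (2.11 and 1.56). The signal of the IP fraction was above that of total RNA in every labelling, but with the sponge the mean ratio was below 2.

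The scaffold CNOT1 was near 1 on its 3 probes, with a log2 IP/T in EV-KM-H2 cells between -0.31 and 0.25. Of the NOT module, CNOT2 lay between -0.43 and -0.16 on 3 probes and CNOT3 was depleted. CNOT3 had log2 signals of 8.15 (Cy3) and 8.12 (Cy5) in EV total RNA, 7.12 and 6.90 in EV Ago2-IP, 8.43 and 8.49 in miR-155-sp total RNA and 7.19 and 7.79 in miR-155-sp Ago2-IP. Its IP/T was 0.459 in EV-KM-H2 cells (0.420 where the IP was in Cy5, 0.501 where it was in Cy3). In sponge cells it was 0.511 (0.641 and 0.407), just above the threshold. CNOT10 had a log2 IP/T of -0.77 in EV and -0.77 in sponge cells.

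PAN3, the subunit that brings the nuclease PAN2 to the poly(A) tail and to TNRC6 proteins, was enriched. Its log2 signal was 7.51 (Cy3) and 7.35 (Cy5) in EV total RNA, 9.24 and 8.91 in EV Ago2-IP, 7.22 and 7.20 in miR-155-sp total RNA and 8.94 and 8.42 in miR-155-sp Ago2-IP. IP/T was 3.12 in EV-KM-H2 cells (2.65 where the IP was in Cy5, 3.69 where it was in Cy3). In sponge cells it was 2.78 (2.30 and 3.35). PAN2 itself had an IP/T of 1.49 in EV-KM-H2 cells.

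The decapping mRNAs held the highest ratio among the decay factors in EV-KM-H2 cells. DCP2 encodes the enzyme that removes the cap, and on A_24_P886040 its log2 signal was 7.29 (Cy3) and 7.09 (Cy5) in EV total RNA, 9.89 and 9.71 in EV Ago2-IP, 6.88 and 6.73 in miR-155-sp total RNA and 9.78 and 9.61 in miR-155-sp Ago2-IP. IP/T was 6.12 in EV-KM-H2 cells (5.38 where the IP was in Cy5, 6.96 where it was in Cy3) and 7.42 in sponge cells (6.65 and 8.28). Its second probe, A_23_P256868, gave 6.59 (Cy3) and 7.07 (Cy5) in EV total RNA, 9.04 and 8.64 in EV Ago2-IP, 6.89 and 6.56 in miR-155-sp total RNA and 9.26 and 9.01 in miR-155-sp Ago2-IP. With an IP/T of 4.04 in EV-KM-H2 and 5.31 in sponge cells, this probe too was above 4 in both populations.

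DCPS, the scavenger enzyme that hydrolyses the cap left after decay from the 3′ end, was enriched on a probe well above background in all 8 channels. Its log2 signal was 12.26 (Cy3) and 12.06 (Cy5) in EV total RNA, 14.52 and 14.23 in EV Ago2-IP, 12.36 and 12.07 in miR-155-sp total RNA and 14.52 and 14.09 in miR-155-sp Ago2-IP. The IP/T of 4.65 in EV-KM-H2 cells (3.93 where the IP was in Cy5, 5.51 where it was in Cy3) and 4.26 in sponge cells (3.33 and 5.46) was above 3 in each dye orientation. Under normexp the labellings of DCPS were more than 2-fold apart and it was not retained.

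The activator DCP1A and its paralog DCP1B differed in size of ratio. DCP1A had an IP/T of 2.02 in EV-KM-H2 cells (1.52 where the IP was in Cy5, 2.69 where it was in Cy3) and 1.86 in sponge cells (1.61 and 2.15), just above the threshold in EV and just below it in sponge cells. DCP1B had an IP/T of 1.31 in EV-KM-H2 and 1.18 in sponge cells. PATL1, a scaffold between deadenylation and decapping, had an IP/T of 2.06 in EV-KM-H2 cells (2.21 where the IP was in Cy5, 1.92 where it was in Cy3) and 2.52 in sponge cells (2.38 and 2.67). The probes just outside the threshold in EV-KM-H2 cells were those of EXOSC1 (1.80) and the second LSM11 probe (1.75), and DCP1A and PATL1 were the ones just inside. The 3 probes of EDC3, an enhancer of decapping, lay between -0.24 and 0.06 in log2 IP/T in EV-KM-H2 cells, and DCPH1 had an IP/T of 1.64.

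**Figure D2:**
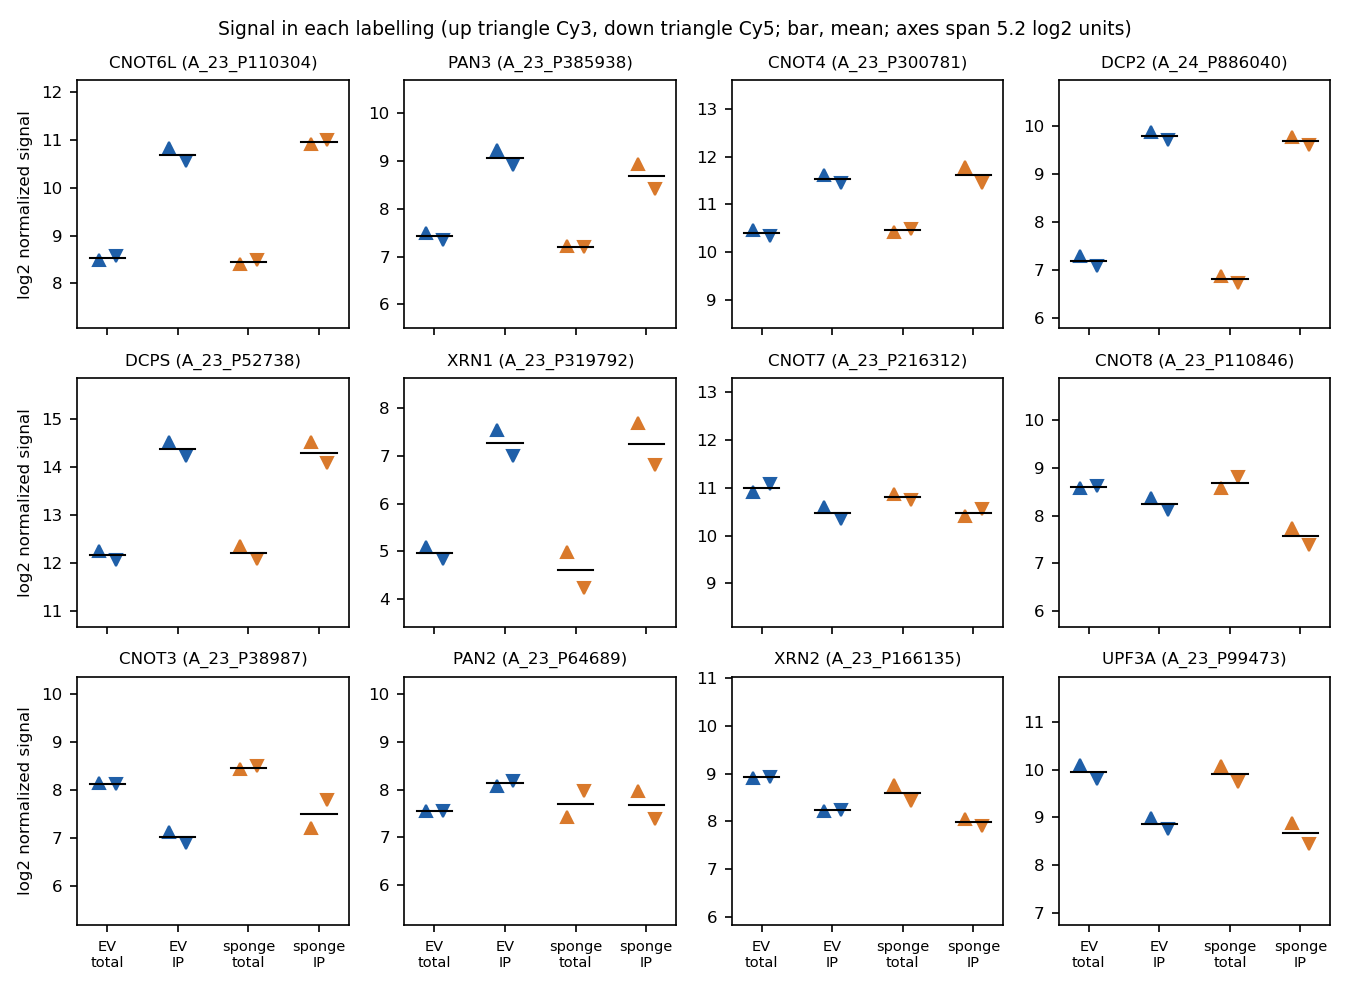
Log2 normalized signal (y axis) in each labelling for 12 probes of deadenylase, decapping, exonuclease and nonsense-mediated decay factors, by population and fraction (x axis); up triangles are Cy3, down triangles Cy5 and bars their mean. For CNOT6L, PAN3, CNOT4, DCP2, DCPS and XRN1 both IP labellings lie above both total labellings in each population, and for CNOT3, CNOT7, CNOT8, XRN2 and UPF3A both lie below.

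The 5′ to 3′ exonucleases XRN1 and XRN2 fell on opposite sides. XRN1, the cytoplasmic enzyme that degrades decapped mRNA, had log2 signals of 5.10 (Cy3) and 4.83 (Cy5) in EV total RNA, 7.54 and 6.99 in EV Ago2-IP, 4.98 and 4.23 in miR-155-sp total RNA and 7.68 and 6.81 in miR-155-sp Ago2-IP. IP/T was 4.92 in EV-KM-H2 cells (3.71 where the IP was in Cy5, 6.53 where it was in Cy3) and 6.24 in sponge cells (3.56 and 10.9), with total RNA near background and 2 further XRN1 probes not detected. XRN2, the nuclear enzyme that acts in transcription termination, had log2 signals of 8.91 (Cy3) and 8.93 (Cy5) in EV total RNA, 8.22 and 8.24 in EV Ago2-IP, 8.75 and 8.43 in miR-155-sp total RNA and 8.06 and 7.92 in miR-155-sp Ago2-IP. Its IP labellings were below its total labellings throughout, with an IP/T of 0.619 in EV-KM-H2 and 0.657 in sponge cells.

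LSm proteins 1 to 7 form the cytoplasmic ring that binds deadenylated mRNA and promotes decapping, and LSm proteins 2 to 8 form the ring on U6 snRNA. Their 11 probes, well above background in all 8 channels, had a log2 IP/T in EV-KM-H2 cells from -0.61 (LSM4) to 0.61 (LSM3). LSM3 was at 0.60 on its second probe, LSM1 at -0.48 and LSM8 at 0.44 and 0.36.

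Other LSm-domain mRNAs spread more widely. LSM11 and LSM10 both belong to the U7 snRNP, which processes histone pre-mRNA, and lay at opposite ends. On A_23_P368195 the log2 signal of LSM11 was 6.25 (Cy3) and 5.65 (Cy5) in EV total RNA, 8.30 and 7.79 in EV Ago2-IP, 5.79 and 5.72 in miR-155-sp total RNA and 8.28 and 8.09 in miR-155-sp Ago2-IP. This was an IP/T of 4.27 in EV-KM-H2 cells (2.91 where the IP was in Cy5, 6.28 where it was in Cy3) and 5.38 in sponge cells (4.90 and 5.91), while probe A_32_P46526, well above background in all 8 channels, gave 1.75 in EV-KM-H2 and 1.91 in sponge cells, on the other side of 2. LSM10 had log2 signals of 12.52 (Cy3) and 12.06 (Cy5) in EV total RNA, 11.37 and 11.34 in EV Ago2-IP, 12.56 and 12.38 in miR-155-sp total RNA and 11.49 and 11.31 in miR-155-sp Ago2-IP. All its IP labellings were below all its total labellings, and IP/T was 0.523 in EV-KM-H2 cells (0.440 where the IP was in Cy5, 0.622 where it was in Cy3) and 0.475 in sponge cells (0.420 and 0.537).

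LSM14A and LSM14B, paralogs that act in translational repression and P-body formation, also differed. LSM14B had an IP/T of 2.45 in EV-KM-H2 cells (3.31 where the IP was in Cy5, 1.82 where it was in Cy3) and 2.86 in sponge cells (3.46 and 2.36), and the 2 probes of LSM14A had 0.756 and 1.25 in EV-KM-H2 cells. LSM12 was depleted in sponge cells on A_23_P307430, with an IP/T of 0.530 in EV and 0.386 in sponge cells, but not on its second probe (0.720 and 0.765).

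The exosome, the complex of 3′ to 5′ decay, stayed between the thresholds. Its 13 probes of 10 genes, all well above background in all 8 channels, had a log2 IP/T in EV-KM-H2 cells between -0.76 (EXOSC9) and 0.85 (EXOSC1). EXOSC10, a catalytic subunit, was at 0.52. In sponge cells the range was -0.71 to 0.79.

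The cytoplasmic poly(A) binding proteins coat the tail that the deadenylases remove. The log2 IP/T of PABPC1 was 0.51, 0.59 and 0.58 on its 3 probes in EV-KM-H2 cells and 0.87, 0.75 and 0.71 in sponge cells. PABPC4 had -0.20 and -0.47, and PABPC3, an intronless gene near-identical to PABPC1 whose probe may also hybridize with PABPC1 mRNA, had -0.08 and 0.30.

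Of the 13 probes for nonsense-mediated decay factors, 3 were depleted in EV-KM-H2 cells, where the share of all retained probes was 12.9%. They were 3 of the 4 depleted member probes and came from UPF3A and SMG6 alone. This difference was not tested. UPF3A, which links the pathway to exon junctions, was depleted by both retained probes. A_23_P99473 gave log2 signals of 10.09 (Cy3) and 9.81 (Cy5) in EV total RNA, 8.98 and 8.76 in EV Ago2-IP, 10.08 and 9.73 in miR-155-sp total RNA and 8.89 and 8.44 in miR-155-sp Ago2-IP. This was an IP/T of 0.474 in EV-KM-H2 cells (0.399 where the IP was in Cy5, 0.564 where it was in Cy3) and 0.423 in sponge cells (0.321 and 0.557). Probe A_24_P81968 gave 7.48 (Cy3) and 7.47 (Cy5) in EV total RNA, 6.22 and 6.30 in EV Ago2-IP, 7.33 and 7.75 in miR-155-sp total RNA and 6.24 and 6.75 in miR-155-sp Ago2-IP. IP/T was 0.431 in EV-KM-H2 and 0.484 in sponge cells, with the IP fraction well above background in 1 labelling of each population. Its paralog UPF3B was not depleted, with 0.533 and 0.726 on 2 probes in EV-KM-H2 cells.

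SMG6, the endonuclease of the pathway, had log2 signals of 7.10 (Cy3) and 6.84 (Cy5) in EV total RNA, 5.61 and 5.92 in EV Ago2-IP, 7.40 and 7.11 in miR-155-sp total RNA and 6.26 and 6.75 in miR-155-sp Ago2-IP. Its IP/T was 0.434 in EV-KM-H2 cells (0.442 where the IP was in Cy5, 0.426 where it was in Cy3) and 0.595 in sponge cells (0.638 and 0.555), on an IP signal well above background in 1 labelling of each population. Under both normexp settings the log2 IP/T in EV-KM-H2 cells was no longer negative (0.036 with quantile normalization and 0.025 with loess and Aquantile). UPF1, the central helicase, was near 1 with 0.962 in EV-KM-H2 and 1.01 in sponge cells, as was SMG5 with 1.08 in EV-KM-H2 and 1.02 in sponge cells. SMG9 had an IP/T of 0.620 in EV-KM-H2 and 0.785 in sponge cells.

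SMG1, the kinase that phosphorylates UPF1, gave the widest disagreement between probes among the genes with several retained probes. A_24_P244952 had log2 signals of 6.29 (Cy3) and 5.73 (Cy5) in EV total RNA, 8.34 and 8.44 in EV Ago2-IP, 5.66 and 6.06 in miR-155-sp total RNA and 8.17 and 8.56 in miR-155-sp Ago2-IP. That probe alone was enriched, and its IP/T was 5.21 in EV-KM-H2 cells (4.42 where the IP was in Cy5, 6.14 where it was in Cy3) and 5.67 in sponge cells (7.47 and 4.30). The other 3 retained probes had 0.818, 0.681 and 0.916 in EV-KM-H2 cells. SMG1 has near-identical partial copies in the genome, with which its probes may also hybridize, so its values are uncertain.

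In 20 genes more than 1 probe was retained. In 18 of these all probes lay on one side of an IP/T of 2 in EV-KM-H2 cells, the others being LSM11 and SMG1. Only CNOT4, CNOT6L and DCP2 had all probes at 2 or above, where 14.8% of all retained probes were enriched. The same count over all genes was not made. The range of log2 IP/T between probes of a gene had a median of 0.44 and was below 0.5 in 11 genes.

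Not every member gave a value. The 8 probes that were on the array but not detected were those of LSMEM1, LSMEM2, PABPC1L2B, PABPC5 and UPF2, a CNOT4 probe and a pair of XRN1 probes. UPF2 and LSMEM1 were just outside the limit, with 3 channels well above background and an IP/T of 2.99 and 1.06 in EV-KM-H2 cells. SMG9 (0.620) and SMG1 on A_32_P203592 (0.916) were just inside it, with 4 channels. A further 7 detected probes had labellings more than 2-fold apart. These included the only probes of EDC4 (0.747) and SMG8 (0.716), so that 54 of the 56 genes were retained. No probe was matched to PATL2, PABPC1L or PABPC4L. The members were brighter than other probes, with a median mean log2 signal of 10.30 against 9.35.

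The sponge comparison asks whether these mRNAs change in level or lose Ago2 when a sponge against miR-155 is expressed. The study proposed that the sponge did not capture all miR-155 in this line, probably because of its very high level. How much miR-155 was captured was not measured on these arrays, so a small change does not show that an mRNA is unaffected by miR-155. The log2 IP/T values of the EV-KM-H2 and sponge cells correlated with r = 0.956 over the 82 probes and with r = 0.957 over all retained probes, as a description across probes that share the same 4 arrays. With the EV value subtracted from the sponge value, the median log2 change of IP/T was -0.03 over the members and -0.0025 over all probes, while scaling each channel to a common median alone made both positive (0.0578 and 0.0555). It was lower in both dye orientations for 29 probes (35.4%, against 30.3% of all) and higher in both for 21 (25.6%, against 30.6%). The changes of the 2 orientations correlated at r = 0.328 over the members and r = 0.266 over all probes, so that much of a single change was not shared by the other orientation.

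**Figure D3:**
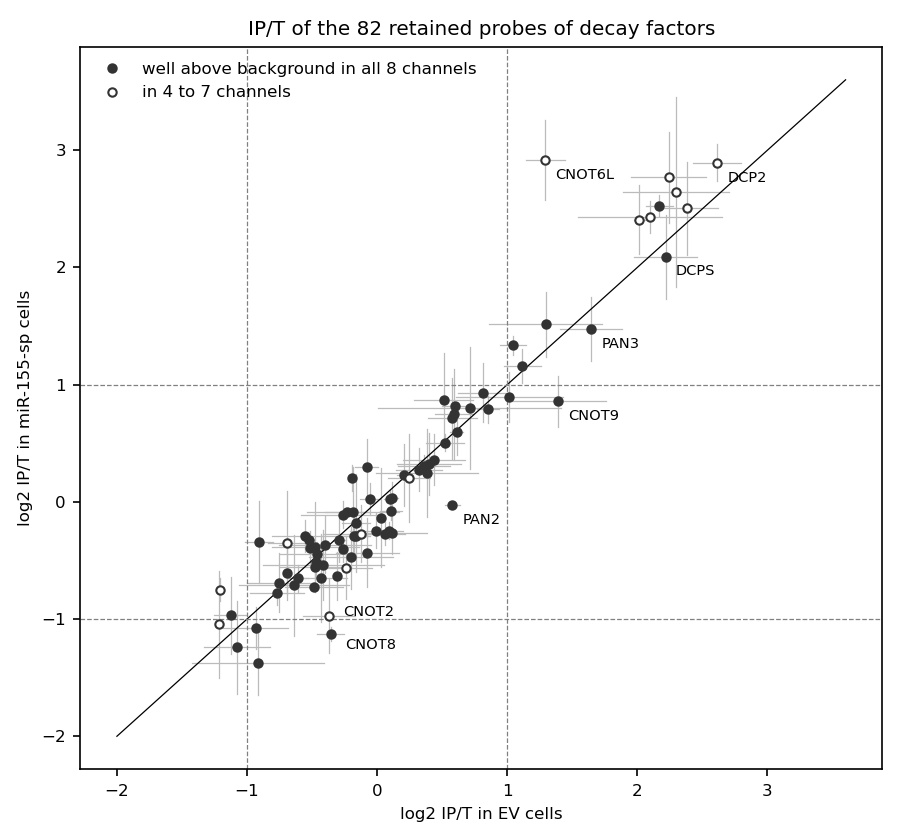
Log2 IP/T in EV-KM-H2 cells (x axis) against sponge cells (y axis) for the 82 retained probes of decay factors; grey lines join the values of the 2 dye orientations, filled points passed the background limit in all 8 channels, the solid line marks equality and dashed lines mark ratios of 2 and 0.5. Most points follow the line (r = 0.956), and CNOT6L (probe A_24_P291680), CNOT8, CNOT2 and PAN2 lie farthest from it.

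A change of at least 1.5-fold in the mean with the same direction in both labellings (for IP/T, in both dye orientations) was rare. In total RNA it was found for 0 probes with a higher signal, against 1.17% of all, and for 1 with a lower signal (1.22%), against 2.24% of all. In the Ago2-IP fraction 2 probes were higher (2.44%), against 1.86%, and 1 was lower (1.22%), against 1.61%. IP/T was higher for 1 probe (1.22%), against 3.82%, and lower for 3 (3.66%), against 3.37%. These shares are of a few probes each, and 1 probe is 1.22% of the members. Without the probes below 8 channels 2 probes were called for IP/T, and after normexp none was called in any of these comparisons.

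CNOT8 was lower in Ago2-IP by both labellings while its total RNA was nearly level. The log2 signals of this deadenylase subunit were 8.58 (Cy3) and 8.61 (Cy5) in EV total RNA, 8.36 and 8.12 in EV Ago2-IP, 8.57 and 8.81 in miR-155-sp total RNA and 7.74 and 7.38 in miR-155-sp Ago2-IP. Total RNA changed by 0.09 (-0.01 by Cy3, 0.20 by Cy5) and Ago2-IP by -0.68 (-0.62 by Cy3, -0.74 by Cy5). IP/T changed by -0.77 (-0.73 where the IP was in Cy5, -0.82 where it was in Cy3), to 0.458 from 0.781, and was -0.61 by the Cy3 and -0.93 by the Cy5 labellings alone. After normexp the change was -0.12 with quantile normalization and -0.05 with loess and Aquantile. Of its paralog CNOT7, 3 of 4 probes had a higher and 1 a lower mean IP/T with the sponge, between -0.08 and 0.39 in log2 change.

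PAN2 and CNOT2 were lower as well, but mainly by the Cy5 labellings, of which each dye orientation holds one per population. PAN2 had log2 signals of 7.55 (Cy3) and 7.56 (Cy5) in EV total RNA, 8.09 and 8.19 in EV Ago2-IP, 7.44 and 7.98 in miR-155-sp total RNA and 7.96 and 7.39 in miR-155-sp Ago2-IP. Its IP/T was 1.49 in EV and 0.980 in sponge cells, a log2 change of -0.61 (-0.68 where the IP was in Cy5, -0.53 where it was in Cy3), and by labelling it was -1.21 in Cy5 and -0.0086 in Cy3. CNOT2 was called on A_24_P8049 only, with signals of 8.39 (Cy3) and 7.93 (Cy5) in EV total RNA, 7.76 and 7.82 in EV Ago2-IP, 8.45 and 8.33 in miR-155-sp total RNA and 7.67 and 7.16 in miR-155-sp Ago2-IP. The log2 change of its IP/T was -0.61 (-0.72 where the IP was in Cy5, -0.49 where it was in Cy3), by labelling -1.07 in Cy5 and -0.15 in Cy3. The other 2 CNOT2 probes changed by -0.13 and -0.22.

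CNOT6L was the only member with a higher IP/T and the only one with a lower total signal, both on probe A_24_P291680. Its total RNA changed by -1.40 (-1.21 by Cy3, -1.60 by Cy5) and its Ago2-IP by 0.22 (0.52 by Cy3, -0.08 by Cy5). The total signals lay between 4.76 and 6.44 and were well above background in 1 labelling of each population. On A_23_P110304, well above background in all 8 channels, total RNA changed by -0.09 and IP/T by 0.36, below the 1.5-fold limit. For this gene the probes shared the direction but not the size.

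In the Ago2-IP fraction SMG6 and PABPC3 were higher with the sponge. SMG6 changed by 0.75 (0.65 by Cy3, 0.84 by Cy5), on signals well above background in 1 IP labelling of each population. PABPC3 had log2 signals of 12.33 (Cy3) and 12.85 (Cy5) in EV total RNA, 12.86 and 12.16 in EV Ago2-IP, 13.00 and 12.60 in miR-155-sp total RNA and 13.14 and 13.06 in miR-155-sp Ago2-IP. Its Ago2-IP signal changed by 0.59 (0.28 by Cy3, 0.90 by Cy5) and its total signal by 0.21 (0.67 by Cy3, -0.25 by Cy5), so that the labellings disagreed in direction for total RNA. The change of PABPC1 in Ago2-IP was 0.03, -0.21 and -0.13 on its 3 probes.

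Of the 15 probes enriched in EV-KM-H2 cells 13 were also enriched in sponge cells, as were 2398 of 2645 over all probes, and the others were CNOT9 and DCP1A. Both DCP2 probes, XRN1, both CNOT4 probes, both CNOT6L probes, PATL1, LSM11, LSM14B and SMG1 had a higher mean ratio in miR-155-sp than in EV-KM-H2 cells, and DCPS, PAN3, CNOT9 and DCP1A a lower one. Apart from CNOT6L on A_24_P291680, each of these changes was below 1.5-fold in the mean. For XRN1, LSM11, SMG1 and DCP1A the 2 dye orientations disagreed in direction.

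**Figure D4:**
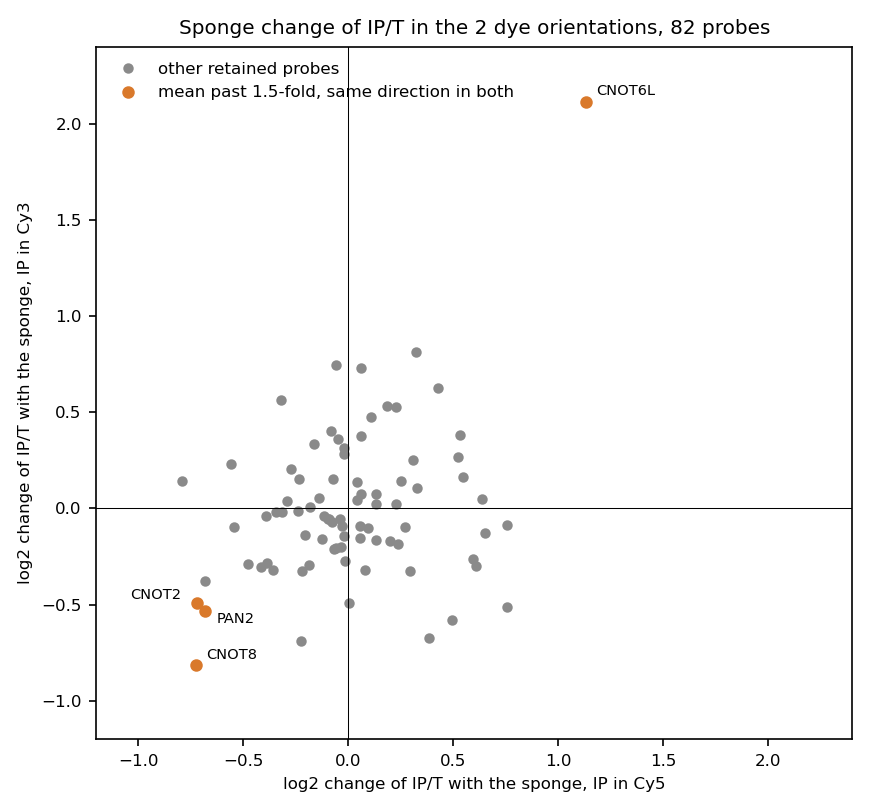
Change of log2 IP/T by the sponge (miR-155-sp minus EV) with IP in Cy5 (x axis) against IP in Cy3 (y axis) for the 82 retained probes of decay factors; orange points have a mean change of at least 1.5-fold with the same direction in both orientations. The grey points scatter around 0 with little relation between the axes (r = 0.328 over all 82), and CNOT6L (A_24_P291680) lies apart at the upper right.

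Other genes of the pathway, outside the symbols above, were taken from a list of 46 genes, among them the deadenylase PARN, the helicase DDX6, the Pumilio proteins, the AU-rich element binding proteins and the exon junction complex. Of these, 64 probes of 42 genes were retained, and their median log2 IP/T in EV-KM-H2 cells was -0.08. In EV-KM-H2 cells 9 of the 64 probes were enriched and 4 depleted, where the shares of all retained probes were 14.8% and 12.9%. In sponge cells 12 were enriched and 3 depleted, where the shares of all were 15.6% and 14.1%. The highest were ZFP36, an AU-rich element binding protein that recruits CCR4-NOT to its targets, with an IP/T of 12.9 in EV-KM-H2 cells (11.8 where the IP was in Cy5, 14.3 where it was in Cy3) and 11.9 in sponge cells (11.2 and 12.7), and its relative ZFP36L1 on A_23_P99540, with 4.85 in EV-KM-H2 cells (5.54 where the IP was in Cy5, 4.25 where it was in Cy3) and 4.40 in sponge cells (4.79 and 4.04). These were the 2 probes of the list, of 64, at 4 or above in EV-KM-H2 cells, where the share of all probes was 5.91%. The second ZFP36L1 probe, A_24_P99152, was not enriched, with 1.00 in EV-KM-H2 and 0.992 in sponge cells, so that the probes of this gene disagreed while all were well above background in all 8 channels. Depleted in EV-KM-H2 cells were both retained probes of NUDT16 (0.499 and 0.498), which can hydrolyse RNA caps, and 1 of 3 probes each of RBM8A and HNRNPD. RBM8A, a subunit of the exon junction complex, had 0.462 on that probe and 0.992 and 0.588 on the others. HNRNPD, an AU-rich element binding protein, had 0.498 on that probe and 0.869 and 0.597 on the others. DDX6 was at 1.09, and PARN at 0.820 and 0.592.

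The label of the cells was checked by markers. TNFRSF8 (CD30), CCL17, TRAF1 and CD40, which mark Hodgkin lymphoma cells, were well above background in all 8 channels, and PAX5, a B-cell transcription factor, in none. In the Cy3 channels 58.9% to 61.9% of gene spots were well above background, and in the Cy5 channels 38.8% to 43.4%, the lowest being those of sponge cells. How far this lower detection enters the sponge changes was not tested. Precision is limited by there being 4 arrays.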

How the data were processed

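The authors obtained spot intensity values from Agilent Feature Extraction (10.5.1.1 per the labels, 10.7.3.1 per the file headers), which subtracts background and normalizes the dyes within each array. The authors also deposited log2 values, which per the study's methods had been quantile-normalized and filtered on detection and agreement of labellings. Their scale was found by setting them against the scanner values. They hold 79 of the member probes and differed from the values computed here by a median of 0.00056. The medians of the deposited log2 columns lay between 9.71 and 9.72.

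Here quantile normalization was applied to the log2 of the processed signals of all 8 channels, after spots with an outlier flag had been left out and spots of one probe averaged. A probe was retained if 4 or more channels were well above background and if Cy3 and Cy5 differed by less than 2-fold in each sample, which left 17912 of 41000. Both labellings are 1 RNA and were averaged. This normalization removes a shift common to a whole fraction, and signals near background make ratios uncertain. Probes were named through accessions in a RefSeq gene table (GRCh38.p14), which matched 23958 of 41000 probes. No gene coordinates are given, since the array design is on hg18.

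Comparisons used counts of probes past fixed ratios and both dye orientations in place of tests. The genes named were all probes enriched or depleted in either population, those past 1.5-fold with the sponge, all deadenylase, decapping and exonuclease mRNAs, the extremes of the other groups, paralog pairs, and other pathway genes at 4 or above or at 0.5 or below in EV cells. Others were named after their values were seen. The members and lists were chosen with earlier results of these data known.

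Alternatives were a common median, normexp (offset 50) with quantile or with loess and Aquantile normalization, the deposited log2 values, stricter or no filters, arithmetic averaging, single labellings, single dye orientations and the mean over probes of a gene. Python 3.11.15, numpy 2.4.6, pandas 2.3.3, R 4.3.3 and limma 3.58.1 were used, and the code was tested on simulated data.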

Additional observations from a re-analysis of the deposited data

Results flagged for a closer look

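For 3 probes of decay factors the IP/T was above 1 by each dye orientation in one population and below 1 by each in the other. With 1 sample per group, this difference was not tested. How many of all retained probes did so was not counted, so whether 3 is unusual cannot be said. PAN2 was lower in sponge cells, with a log2 change of IP/T of -0.61, and EXOSC7 on A_23_P58102 was lower, with -0.34. CNOT7 on A_32_P170888 was higher, with 0.39. Each orientation holds Cy5 labellings, and by Cy3 alone PAN2 and EXOSC7 did not cross 1. In Cy3 the log2 IP signal of PAN2 was 8.09 in EV-KM-H2 and 7.96 in sponge cells, above totals of 7.55 and 7.44. That of EXOSC7 was 12.13 and 12.12, below totals of 12.21 and 12.18. That of CNOT7 was 11.34 in both, below a total of 11.45 in EV-KM-H2 and above 11.29 in sponge cells. The second EXOSC7 probe changed by 0.03 and the other 3 CNOT7 probes by between -0.08 and 0.20.

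A signal also appeared outside the genes. The control spots of 10 spike-in RNAs, added during labelling, had a log2 IP/T that was higher in the sponge cells than in the EV-KM-H2 cells by a median of 1.59 (1.22 to 1.68), before quantile normalization. On the same scale the median change over the decay factors was -0.02 and over all retained probes 0.0056.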

How the results depend on the processing

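Of 45 called values of single probes, recomputed 544 times in all under the alternatives that gave them a value, 542 kept their direction. The 2 that reversed were the log2 IP/T of SMG6 in EV-KM-H2 cells, 0.036 under normexp with quantile normalization and 0.025 with loess and Aquantile, and the cause was not tested. Settings that changed only a filter reused the same signals and could not change a value. Single dye orientations could not reverse a called sponge change, since the call required the same direction in both labellings or orientations. Nor could single labellings or orientations reverse an IP/T called enriched or depleted. That call required at least 2-fold in either direction, and labellings were within 2-fold. The 542 thus include many values that were bound to keep their direction, and do not measure how stable the directions were. Under normexp 35 values moved by at least the spread between labellings with quantile normalization, and 37 with loess and Aquantile. The deposited log2 values and arithmetic averaging left every count of member probes within 1.5 times and every median within the spread between labellings.

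Probes enriched at a ratio of 2 in EV-KM-H2 cells (15) numbered 3 under normexp with quantile, 5 with loess and Aquantile, 8 if well above background in all 8 channels and 9 with labellings within 1.5-fold. In sponge cells (13) they numbered 5, 5 and 6 under the first 3 of these. Probes at 0.5 or less in EV-KM-H2 cells (4) numbered 0 under both normexp settings, 2 with all 8 channels, 8 where the IP was in Cy5 and 2 where it was in Cy3. In sponge cells (5) they numbered 1 and 0 under normexp and 3 with the mean over probes of a gene. The filters to all 8 channels and to 1.5-fold leave fewer probes.

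Probes past 1.5-fold with the sponge numbered 0 under both normexp settings for total RNA, Ago2-IP and IP/T. For total RNA (1) they numbered 2 with a common median, 2 with no detection filter, 3 with no agreement filter, 0 with all 8 channels, 3 where the IP was in Cy5 and 4 where it was in Cy3, and 3 to 4 by single labellings. For Ago2-IP (3) they numbered 7 with IP in Cy5, and up to 7 by single labellings. For IP/T (4) they numbered 2 with all 8 channels, 12 where the IP was in Cy5, 8 where it was in Cy3, and up to 17 by single labellings. With a single labelling or orientation the condition on direction cannot fail, so these counts rest on the fold alone. For total RNA and for Ago2-IP a single orientation holds the same values as a single labelling.

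The median log2 IP/T in EV-KM-H2 cells (-0.07) was 0.0143 with IP in Cy3, 0.0058 with IP in Cy5, -0.13 with labellings within 1.5-fold, -0.0033 under normexp with quantile and 0.057 with loess and Aquantile. In sponge cells (-0.12) it was -0.0885 with IP in Cy5, -0.16 with a common median, -0.25 with labellings within 1.5-fold and with no agreement filter, -0.10 with the mean over probes of a gene, -0.0559 and 0.0186 under normexp with quantile and with loess and Aquantile, -0.16 with all 8 channels, and -0.1182 to -0.0946 by single labellings. The median sponge change (-0.03) was -0.0478 with IP in Cy3, 0.0578 with a common median (0.0555 over all probes), -0.044 with labellings within 1.5-fold, -0.0407 with no agreement filter, -0.0106 under normexp with quantile, -0.0451 with all 8 channels, and -0.0107 to 0.0071 by single labellings.

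No paired analysis was possible because the replicate numbers mark only the dye labelling of 1 RNA per group and no test was run. Detection in Cy5 limits ratios of probes near background, and the number of arrays limits all values.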
